A study of Capra hircus with 3 samples.

Results

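The insulin-like growth factors (IGFs), their receptors and their binding proteins were examined in the skin of Arbas Cashmere goats kept under a short or a natural photoperiod. The members were all non-control probes of the array whose gene name begins with IGF or whose description contains insulin-like growth factor, with the mRNA-binding proteins of IGF2 left out. The rule found 23 probes, 17 by their name and 6 by their description alone. They belong to 10 genes: the 2 ligands IGF1 and IGF2, the 2 receptors IGF1R and IGF2R, and the 6 binding proteins IGFBP1 to IGFBP6. The array holds 14314 distinct gene names, and 1 gene can stand under several of them, as IGF1R does. No probe was chosen by its measured value.

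Each of the 3 arrays compared 1 female goat of 2 years from the short photoperiod, labelled with Cy5, with 1 female of the same age from natural conditions, labelled with Cy3. Goats of the short photoperiod grazed, fed and drank outdoors for 7 h a day and spent the rest of the day in a dark shed of about 0.1 lux that was 1 degree colder than the air outside. The control goats, which some labels call the long photoperiod, grazed in natural conditions, and according to the paper the goats of a pair had the same parent and all were sampled in July. The 3 pairs are numbered as the replicates in the labels. The RNA came from whole skin cut from the side of the body, so that fewer cells of a type and less RNA per cell cannot be told apart. The dyes were not swapped on any array, and the dye bias of a probe is therefore contained in its ratio.

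IGF1 and IGF2 are small secreted hormones that act through IGF1R, a receptor tyrosine kinase at the cell surface whose main branches run through AKT and through the MAP kinases. IGF2R carries no kinase and takes IGF2 up for degradation. The binding proteins hold the ligands in blood and tissue, keep them from the receptor or release them to it, and are cut by proteases. Growth hormone drives the synthesis of IGF1 in the liver and in other tissues. In the skin, IGF1 is made by fibroblasts and by the dermal papilla, and it is known to keep the hair follicle in its growth phase, whereas several binding proteins are made in the dermis and the papilla.

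The probes are designed oligonucleotides of 60 bases taken from sheep records, and the goat RNA was hybridised to them. Those on which the comparisons below turn are printed 5′ to 3′ as deposited with the array, the IGF probes either whole or by their first 30 bases, as labelled. The only IGF1 probe starts at base 520 of its record, and the capitals mark the first stop codon read from its first base, which follows 14 codons:

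IGF1, base 520: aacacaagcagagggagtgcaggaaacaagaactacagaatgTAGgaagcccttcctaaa

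The IGF2 probes start at bases 583 and 1147 of the same record and share no run of bases, and they are shown because their ratios differed:

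IGF2, base 583: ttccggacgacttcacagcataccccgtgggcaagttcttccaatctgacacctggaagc
IGF2, base 1147, first 30 bases: ctgaaatgaattggctttttagcaacacca

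IGFBP1 had 3 probes on 2 records, shown because the largest difference within a pair was found on all of them. The probes of the second record are shifted by 1 base, which the capital marks:

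IGFBP1, base 369: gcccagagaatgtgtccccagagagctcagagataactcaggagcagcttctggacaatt
IGFBP1, base 1012, first 30 bases: Tcatgaaacacttcccatcatggtgtatgt
IGFBP1, base 1013, first 30 bases: catgaaacacttcccatcatggtgtatgta

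IGFBP2 and IGFBP3 held the probes with the lowest unadjusted p-values of the family, and the capital again marks the base by which the IGFBP2 probes differ:

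IGFBP2, base 1307, first 30 bases: Ttttatttttgaacccctgtgtctcttttt
IGFBP2, base 1308, first 30 bases: tttatttttgaacccctgtgtctctttttg
IGFBP3, base 300: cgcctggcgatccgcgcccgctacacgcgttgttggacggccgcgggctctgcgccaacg
IGFBP3, base 1141, first 30 bases: atttttctcgttgcttcctataaaaatact
IGFBP3, base 1278, first 30 bases: ctcatgtagactcgcttagtttccacttgt

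The probes at bases 1012 and 1013 of IGFBP1 share 59 of their 60 bases. The same holds for the probe pairs of IGFBP2, IGFBP4, IGFBP5 and IGFBP6 and for a pair of IGF2R, and such a pair measures nearly the same target, so that its agreement is a technical repeat. The guanine and cytosine content ranged from 26.7% in both IGFBP2 probes to 75% in the IGFBP3 probe at base 300. Levels of different probes were not compared, because each probe binds with its own strength.

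Of the 23 member probes, 22 had a signal well above background in every channel of the 3 arrays and 0 were saturated. The exception was an IGF2R probe at base 3660 of its record, which was above background in Cy5 on 1 array and in Cy3 on 2 arrays, and its ratio is not given. Levels are given as log2 of the normalized signal of a goat, and ratios as log2 of the short over the natural photoperiod, so that -1 is a decrease of 2-fold. The median log2 ratio of all 14977 tested probes was -0.01, and the ratios of the arrays correlated across probes, which are not independent, with r between 0.177 and 0.359.

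A 2-fold change of the mean was seen for 0 member probes, and for 0.841% of all tested probes. By limma with Benjamini-Hochberg adjustment over all tested probes, 0 of the 23 members had an adjusted p under 0.05, against 0.00668% of all probes. The unadjusted p from limma was under 0.05 with a lower level under the short photoperiod for 3 members (13%), against 9.35% of all probes, and with a higher level for 0 members, against 9.11% of all probes. The 3 were both IGFBP2 probes and the IGFBP3 probe at base 1141. When the channels were fitted separately, paired by the correlation between the dyes of a spot, limma also called 0 members. With 3 arrays the precision of all values below is limited.

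The medians of the classes are given as a description, with no test. The 14 binding protein probes had a median mean log2 ratio of -0.41, with 12 lower and 2 higher under the short photoperiod. The 3 ligand probes had a median of -0.16, with 2 lower and 1 higher, and the 5 measured receptor probes a median of 0.00, with 2 lower and 3 higher. Within the pairs the median of the binding protein probes was -0.28, -0.05 and -0.25 in pairs 1, 2 and 3. With the probes of each gene averaged, 5 of the 6 binding proteins had a mean below 0. With each array centred on its median in place of loess, the binding protein median was -0.22 with 10 lower and 4 higher, and the receptor median was -0.19 with all 5 lower.

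**Figure D1:**
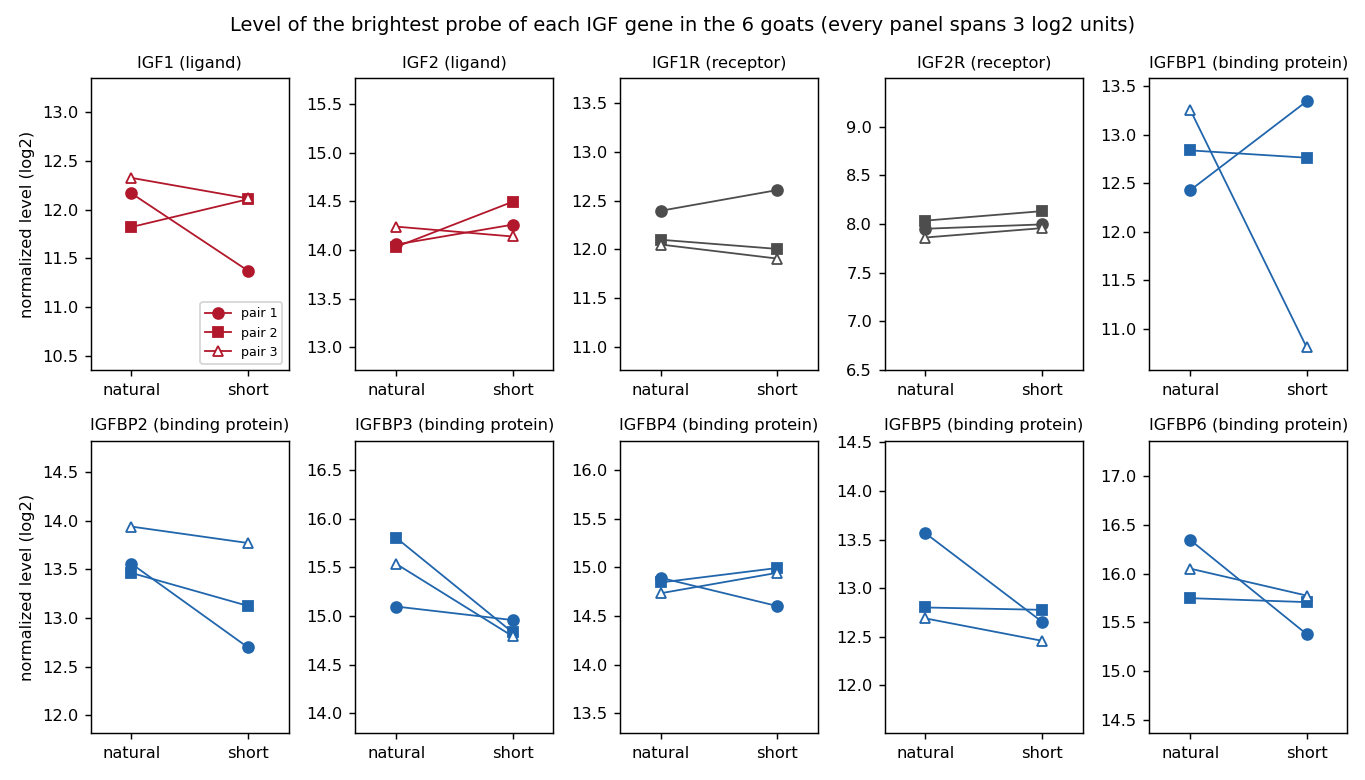
Normalized level (log2, vertical axis) of the brightest measured probe of each gene in the natural and the short photoperiod goat of each pair, joined by a line. The panels all span 3 log2 units but start at different levels, which are not comparable between genes. The short photoperiod goat of pair 3 stands apart in IGFBP1 at 10.81, and the 3 lines of IGFBP2 and of IGFBP3 run downwards.

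IGF1, the ligand that growth hormone induces, did not differ in a common direction. Its level was 12.17, 11.82 and 12.33 in the natural photoperiod goats of pairs 1, 2 and 3, and 11.37, 12.11 and 12.12 in the short photoperiod goats. The short photoperiod goat of pair 1 was the lowest of the 6, and the groups overlapped. The log2 ratios were -0.80, 0.29 and -0.21, with a mean of -0.24 ± 0.54 (SD, n = 3; limma's SE 0.22) and an adjusted p from limma of 0.586. Without pair 2 the mean was -0.50 and without pair 1 it was 0.04, so that the sign of the IGF1 mean rests on that pair.

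IGF2, the ligand best known from fetal growth, gave different values on its 2 probes. At base 1147 the level was 14.06, 14.03 and 14.24 in the natural and 14.26, 14.50 and 14.14 in the short photoperiod goats, with ratios of 0.20, 0.46 and -0.10. The mean was 0.19 ± 0.28 (SD, n = 3; limma's adjusted p 0.507), and it was 0.05 without pair 2 and 0.33 without pair 3. At base 583 the ratios were -0.24, 0.17 and -0.41, with a mean of -0.16 ± 0.30 and an adjusted p from limma of 0.577. The first of these ratios exceeded the second by 0.30 to 0.44 in every pair, a difference between probes of the same RNA sample that was larger than either mean. The order of the pairs was the same on both probes, with pair 2 highest and pair 3 lowest.

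IGF1R, the signalling receptor, had 3 probes on 3 records that share no run of bases. The brightest gave levels of 12.40, 12.10 and 12.05 in the natural and 12.61, 12.004 and 11.90 in the short photoperiod goats, and the goats of pair 1 were the highest of their groups. Its mean ratio was -0.01 ± 0.19 (SD, n = 3; limma's SE 0.12, adjusted p 0.973). The other probes had means of 0.06 and 0.00. In all 3 probes pair 1 had the highest ratio, between 0.13 and 0.24, and pair 3 the lowest, between -0.14 and -0.10.

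IGF2R, the receptor that removes IGF2, held the measured probe with the lowest SD of the family, at base 455. The mean level of that probe was at percentile 11.65 of all probes, and whether the small SD reflects this low level was not tested. At base 455 its level was 7.95, 8.03 and 7.86 in the natural and 7.99, 8.13 and 7.96 in the short photoperiod goats. The ratios of 0.04, 0.10 and 0.10 had a mean of 0.08 ± 0.03 (SD, n = 3; limma's adjusted p 0.677), and their SD was at percentile 2.1 of all tested probes. This was the only member higher on all 3 arrays (1 of 23, 4.35%), against 21.6% of all probes with 3 values. Under median centring its mean was -0.23, so that its sign depends on the normalization, and the probe shifted by 1 base had a mean of -0.05 with loess.

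**Figure D2:**
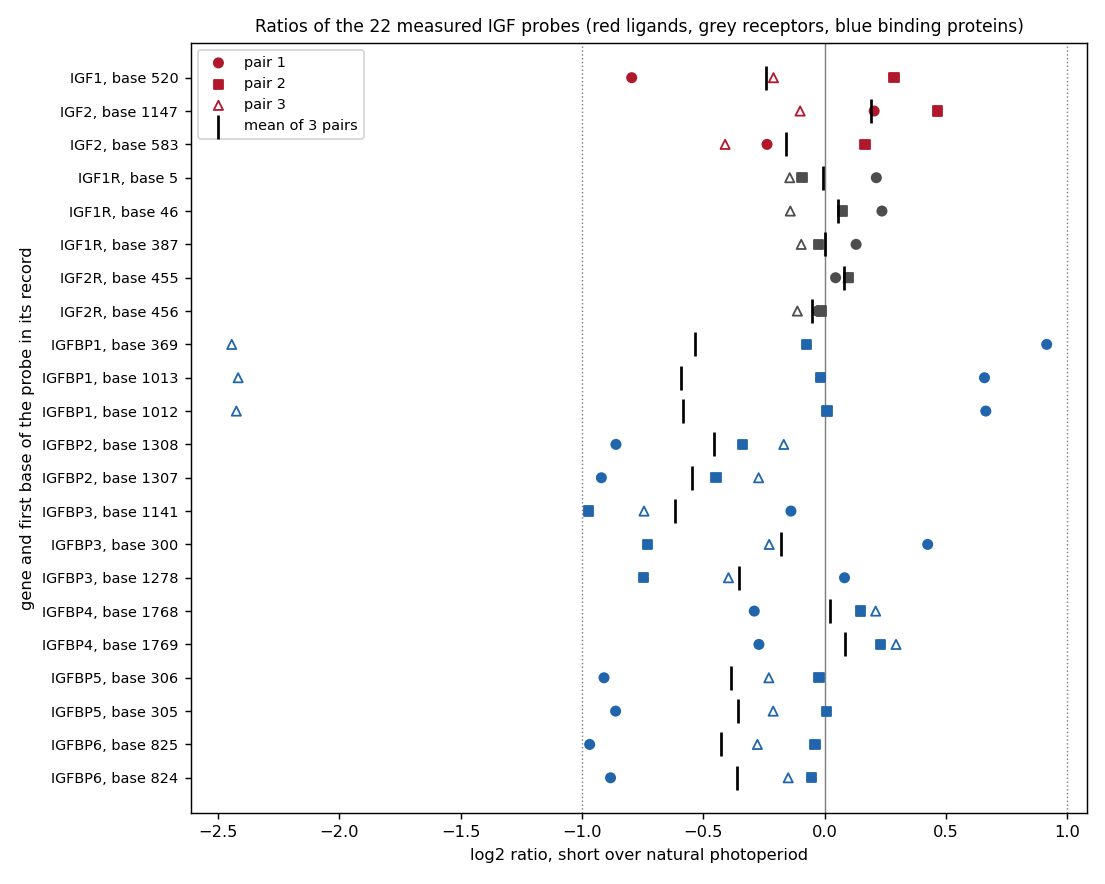
Log2 ratio of the short over the natural photoperiod (horizontal axis) of each of the 22 measured probes in pairs 1, 2 and 3, with the mean of the pairs as a bar and dotted lines at 2-fold. Probes are listed by gene and first base in their record. The receptors lie within 0.24 of 0, and the IGFBP1 probes reach from 0.91 in pair 1 to -2.44 in pair 3.

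The 3 members with an unadjusted p from limma under 0.05 (13%, all lower, against 9.35% of all probes) were of binding proteins. This class held 14 of the 23 member probes, and the 3 included both near-duplicates of IGFBP2. IGFBP2, which binds both ligands with a preference for IGF2, had a level of 13.56, 13.46 and 13.94 in the natural and 12.70, 13.12 and 13.77 in the short photoperiod goats at base 1308. The short photoperiod goat was the lower of each pair, although the groups overlapped on this probe because the short photoperiod goat of pair 3 was above 2 of the control goats. The ratios were -0.86, -0.34 and -0.17, with a mean of -0.46 ± 0.36 (SD, n = 3; limma's SE 0.16, unadjusted p 0.0377, adjusted p 0.247), and without pair 1 the mean was -0.25. At base 1307 the ratios were -0.92, -0.45 and -0.27, with a mean of -0.55 ± 0.33 and an adjusted p from limma of 0.201. The mean decrease corresponds to 1.37-fold and 1.46-fold on the respective probes, and the difference did not pass the adjusted threshold.

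IGFBP3, the main carrier of the IGFs in blood and a product of dermal cells, had the lowest mean of the brightest probes. At base 1141 its level was 15.10, 15.81 and 15.54 in the natural and 14.96, 14.83 and 14.79 in the short photoperiod goats. All short photoperiod goats were below all control goats, by 0.14 at the nearest. The ratios were -0.14, -0.97 and -0.74, with a mean of -0.62 ± 0.43 (SD, n = 3; limma's SE 0.18, unadjusted p 0.0202, adjusted p 0.211), a 1.54-fold decrease. The other probes gave smaller means of -0.35 ± 0.42 at base 1278 and -0.18 ± 0.58 at base 300, and the latter is the probe with the highest guanine and cytosine content of the family. All 3 probes had their lowest ratio in pair 2 and their highest in pair 1, where the ratio was 0.42 at base 300 and 0.08 at base 1278. Under median centring the mean at base 1141 was -0.05, so that the size of this difference depends on the normalization.

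Levels without overlap between the groups, with the short photoperiod lower, were found for 2 of the 23 members (8.7%), against 7.16% of all probes with 3 values. They were the IGFBP3 probe at base 1141 and the IGFBP2 probe at base 1307, the latter by only 0.008 at the nearest. No member was higher without overlap, against 6.44% of all probes. A lower level on all 3 arrays was found for 7 members (30.4%), against 22% of all probes. These were 1 probe of IGF2R, both of IGFBP2, 1 each of IGFBP3 and IGFBP5, and both of IGFBP6.

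IGFBP1, which the liver releases when insulin is low, varied most between the pairs. Its level at base 369 was 12.43, 12.84 and 13.26 in the natural and 13.34, 12.76 and 10.81 in the short photoperiod goats. The short photoperiod goat of pair 3 was below the other 5 goats, and that of pair 1 was the highest of all. The ratio was 0.91 in pair 1, -0.08 in pair 2 and -2.44 in pair 3, a 1.89-fold increase in the first and a 5.44-fold decrease in the last. The mean of -0.53 ± 1.73 (SD, n = 3; limma's SE 0.64, adjusted p 0.679) hides this spread, whose SD was at percentile 99.6 of all tested probes. The probes on the second record gave -2.42 in pair 3 and 0.66 in pair 1, so that unrelated sequences of the gene gave the same order of the pairs. In pair 3 the 3 probes held ranks 26 to 29 from the lowest ratio on the array. Without pair 3 the mean at base 369 was 0.42, and without pair 1 it was -1.26 and all 3 IGFBP1 probes passed 2-fold.

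**Figure D3:**
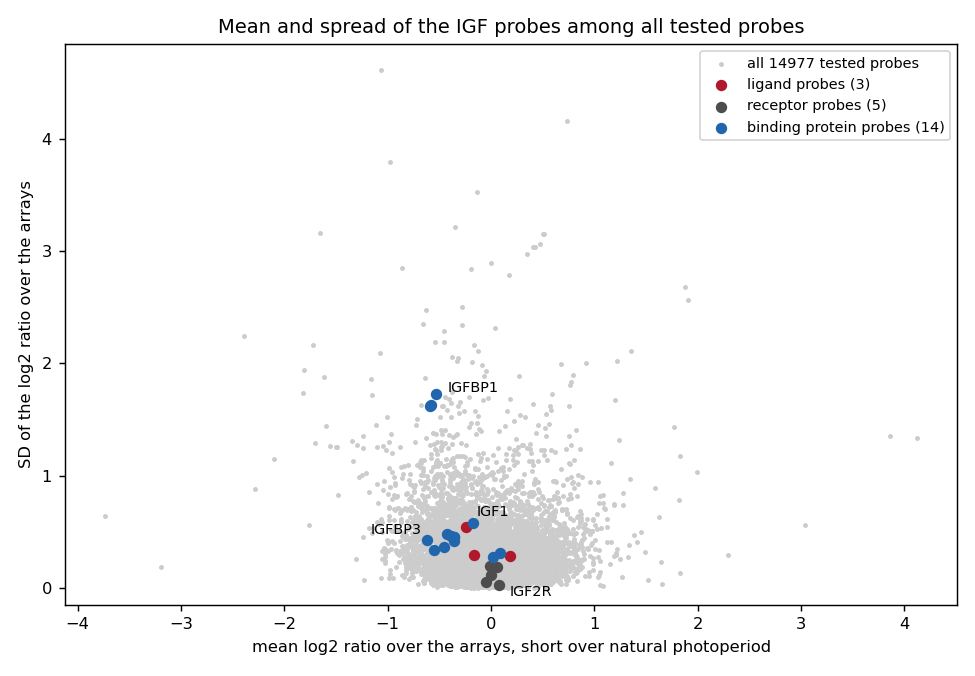
Mean log2 ratio over the arrays (horizontal axis) and its SD (vertical axis) of the 14977 tested probes in grey, with the 22 measured members in colour. The IGFBP1 probes lie at an SD of 1.62 to 1.73, far above the other members, and the IGF2R probes lie near 0 on both axes.

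IGFBP4, which mostly restrains the IGFs and is cut by PAPPA, had a level of 14.89, 14.84 and 14.73 in the natural and 14.60, 14.99 and 14.94 in the short photoperiod goats at base 1768. The ratios of -0.29, 0.15 and 0.21 averaged 0.02 ± 0.27 (SD, n = 3; limma's adjusted p 0.938), and the second probe averaged 0.08. Its mean was -0.04 without pair 2 and -0.07 without pair 3. With loess IGFBP4 was the only binding protein whose means were above 0, and with median centring IGFBP6 was so too.

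IGFBP5, a binding protein of the extracellular matrix, had a level of 13.56, 12.80 and 12.69 in the natural and 12.65, 12.78 and 12.46 in the short photoperiod goats at base 306. The control goat of pair 1 was above the other 5, which lay between 12.46 and 12.80. The ratios were -0.91, -0.02 and -0.23, with a mean of -0.39 ± 0.46 (SD, n = 3; limma's adjusted p 0.353). Without pair 1 the mean was -0.13. The near-duplicate at base 305 gave a mean of -0.36.

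IGFBP6, which prefers IGF2, had a level of 16.35, 15.75 and 16.05 in the natural and 15.38, 15.71 and 15.77 in the short photoperiod goats at base 825. The goats of pair 1 were the highest and the lowest of the 6. The ratios were -0.97, -0.04 and -0.28, with a mean of -0.43 ± 0.48 (SD, n = 3; limma's adjusted p 0.329), and the near-duplicate averaged -0.36. Without pair 1 the mean at base 825 was -0.16. Under median centring these means were 0.39 and 0.38, so that the direction of IGFBP6 depends on the normalization.

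The pairs therefore contributed unequally. In pair 1 the probes of IGF1, IGFBP2, IGFBP5 and IGFBP6 had ratios between -0.97 and -0.80 and ranked between 221 and 359 from the lowest ratio of the array, whereas the IGFBP1 probes had 0.66 to 0.91. In pair 2 IGFBP3 had the lowest ratios of the family, from -0.97 to -0.73, and IGF1 and IGF2 lay between 0.17 and 0.46. In pair 3 19 of the 22 measured probes were below 0, and IGFBP1 was lowest. The goats that set the pair 1 ratios differed by gene: for IGF1 and IGFBP2 the short photoperiod goat was the lowest of the 6, for IGFBP5 the control goat was the highest, and for IGFBP6 both held.

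The goat gene table of the assembly ARS1.2 lists all 10 symbols of the family and 0 of the 15 sheep records. In it IGFBP1 is the neighbour of IGFBP3, IGFBP2 that of IGFBP5, and IGF2 that of the insulin gene. The neighbours IGFBP2 and IGFBP5 both had their lowest ratio in pair 1. So did IGF1, IGFBP4 and IGFBP6, which have no member of the family as neighbour. Of the neighbours IGFBP1 and IGFBP3 the first was lowest in pair 3 and the second in pair 2.

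The normalization touched the members unequally. Median centring in place of loess moved the mean of the IGFBP6 probes by 0.75 and 0.82, of the IGFBP4 probes by 0.40 and 0.45, of the IGFBP3 probe at base 1141 by 0.57 and of the IGF2 probe at base 1147 by 0.26, all upwards. It moved the IGF2R probes by -0.31 and -0.33. The probes moved upwards most were among the brightest of the family and those moved downwards most the dimmest. IGF1, IGFBP1, IGFBP5 and the IGF2 probe at base 583 moved by at most 0.07 in either direction. Probes of IGF1, IGF2 and IGFBP1 to IGFBP5 all kept the sign of their means with median centring. The same held with the scanner software's own log ratios and with the value table. At base 1141 of IGFBP3 the mean was only -0.05 with median centring.

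**Figure D4:**
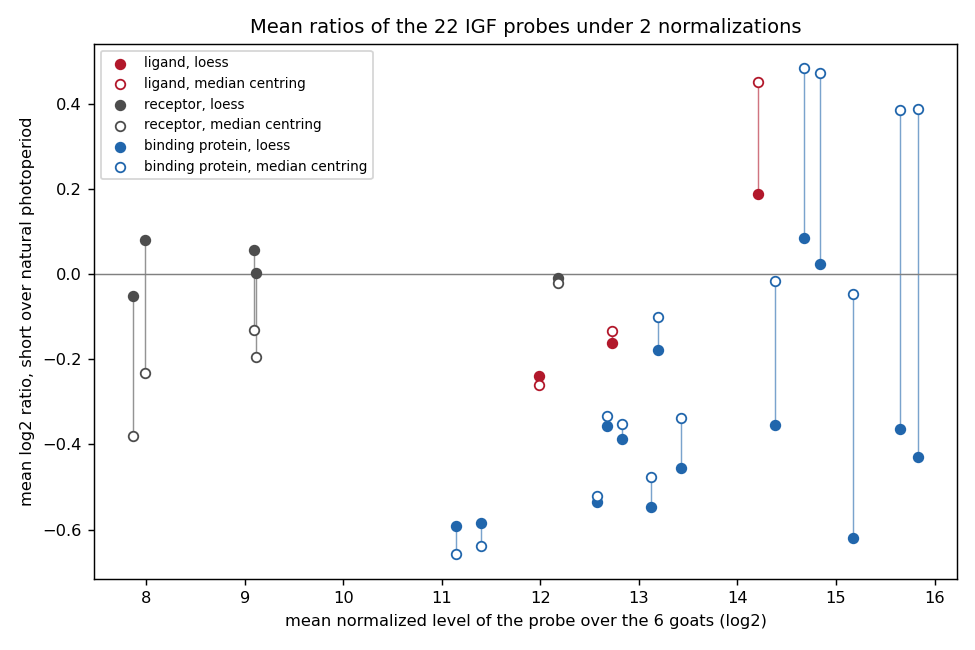
Mean log2 ratio of each measured member probe (vertical axis) against its mean normalized log2 level over the 6 goats (horizontal axis), with loess as a filled and with median centring as an open circle, joined by a line. The line is long for the brightest probes, as for IGFBP6 from -0.43 to 0.39, and for the dimmest, as for IGF2R from 0.08 to -0.23.

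Genes that act upstream and downstream of the IGFs were taken from lists of 74 genes (growth hormone axis, insulin and its receptor, proteases of the binding proteins, receptor adaptors, AKT and MAP kinase branches, and H19). Of these, 14 were on the array, 2 of them (the insulin receptor and H19) matched by their description after the names on the array had been seen. The 20 measured probes of 12 genes had a median mean log2 ratio of -0.17, with 5 higher and 15 lower. The unadjusted p from limma was under 0.05 for 1 higher and 5 lower of these 20 probes, where 9.11% and 9.35% of all probes were so, and 0 had an adjusted p under 0.05. The 5 lower were 3 probes of FOS and 1 each of GHRHR and MMP9, so that 3 of the 5 come from 1 gene. The insulin receptor was well above background in 2 of 6 channels and has no ratio, and IRS1 and PAPPA were not found under these names.

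H19, a non-coding RNA of the imprinted domain that it shares with IGF2, and made from the maternal copy where IGF2 is made from the paternal one, had the highest mean of the pathway list. Its probe, shown whole because its ratios were similar in every pair, starts at base 87 of a partial sheep record:

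H19, base 87: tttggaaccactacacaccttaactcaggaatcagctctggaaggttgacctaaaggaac

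The H19 level was 10.58, 10.29 and 9.03 in the natural and 12.04, 11.80 and 10.62 in the short photoperiod goats. The short photoperiod goat was higher in each pair, and the groups did not overlap, although the short photoperiod goat of pair 3, at 10.62, was barely above the control goat of pair 1, at 10.58. The ratios of 1.46, 1.51 and 1.59 had a mean of 1.52 ± 0.07 (SD, n = 3), a 2.87-fold difference, with an unadjusted p from limma of 2.02e-05 and an adjusted p of 0.139. The adjusted p was 0.0462 when separate channels were paired by spot and 0.0303 with median centring, and between 0.0303 and 0.565 over the alternatives. The means of IGF2 itself were 0.19 and -0.16 on its probes. Whether the H19 ratio contains a dye bias was not tested.

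The growth hormone axis was represented by 3 measured genes. GHRHR, the pituitary receptor of growth hormone releasing hormone, had a level of 11.68, 13.09 and 10.48 in the natural photoperiod goats. In the short photoperiod goats it was 8.18, 8.64 and 7.23. The ratios were -3.50, -4.46 and -3.24, and the mean of -3.73 was the lowest of all 14977 tested probes. The adjusted p from limma was 0.139, and 0.0214 when the channels were paired by spot. Over the alternatives it lay between 0.0185 and 0.782. Whether the GHRHR ratio contains a dye bias was not tested. GHR, the growth hormone receptor that leads to IGF1, had ratios of -0.28, -0.06 and -0.43, with a mean of -0.26 ± 0.19 (SD, n = 3; limma's adjusted p 0.320). STAT5A, which carries the signal of GHR to the IGF1 gene, had means between -0.20 and -0.16. Growth hormone was not well above background in any channel.

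FOS, an early target of MAP kinase signalling, had means of -0.62, -0.61 and -0.74 on 3 probes. Its ratios were between -0.83 and -0.72 in pair 1, -0.11 and 0.03 in pair 2, and -1.28 and -1.13 in pair 3, and the adjusted p from limma was between 0.226 and 0.270. The mean of -0.62 on the first of these probes was -0.36 without pair 3 and -0.93 without pair 2. Among the proteases, MMP9 was lower in each pair (-0.50, -0.29 and -0.52), with a mean of -0.44 ± 0.13 (SD, n = 3; limma's unadjusted p 0.00902, adjusted p 0.182, and between 0.0352, with median centring, and 0.658 over the alternatives). The other proteases MMP2, MMP7, CTSD and PLAU had means between -0.28 and 0.22, and the kinase AKT1 and its target BAD between -0.04 and 0.05.

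**Figure D5:**
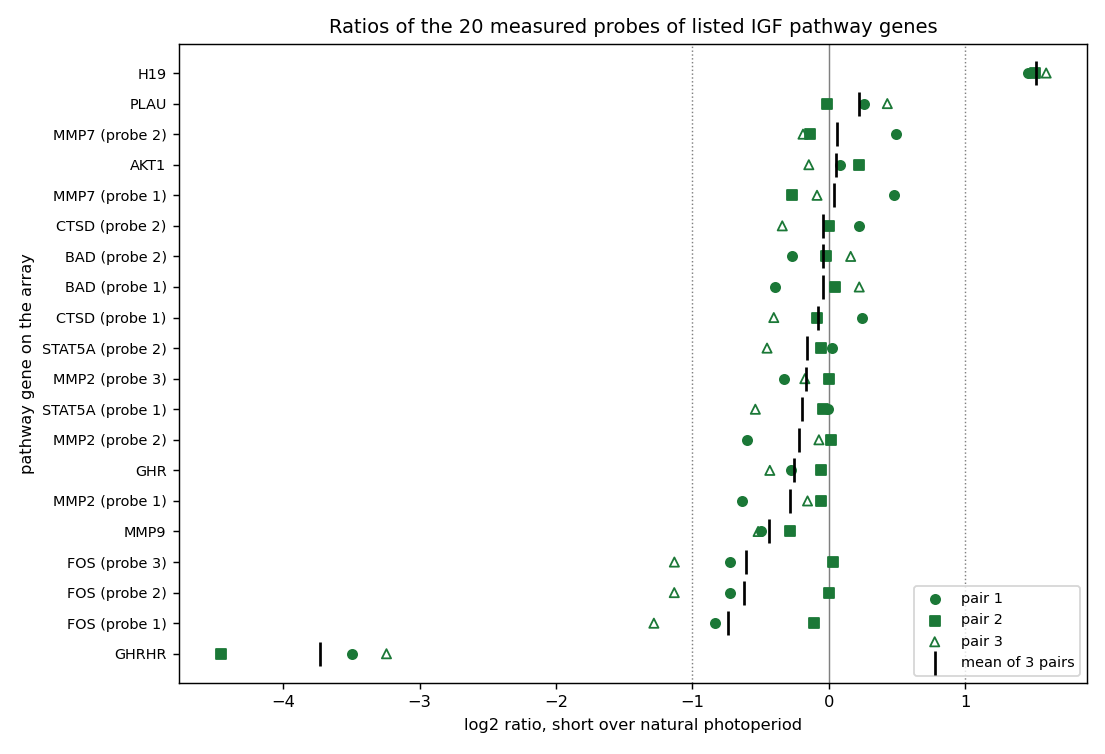
Log2 ratio of the short over the natural photoperiod (horizontal axis) in pairs 1, 2 and 3 of the 20 measured probes of listed pathway genes, ordered by their mean, which is drawn as a bar. H19 lies between 1.46 and 1.59, GHRHR between -4.46 and -3.24, and the remaining means lie between -0.74 and 0.22.

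Markers of the cell types in skin were read beside the IGF genes. The hair shaft and root sheath list (5 of 8 genes on the array) was higher on 6 of 6 probes, with a median of 1.17 and a summed log2 level of 18.68 to 18.80 in the short and 16.80 to 18.06 in the natural photoperiod goats. The study chose these 5 genes as higher on these same arrays, so that their direction is not independent evidence. The leukocyte list (5 of 9 genes) was lower on all 8 measured probes, with a median of -0.36 and a summed level of 16.51 to 16.77 in the short and 16.95 to 17.20 in the natural photoperiod goats, and CD4 was not above background on every array. The adipocyte list (4 of 6 genes) was lower on 5 of 7 probes, with a median of -0.41 and a summed level of 14.34 to 14.76 against 14.70 to 15.30, which overlapped. The fibroblast list (4 of 8 genes) was lower on 5 of 7 probes, with a median of -0.23. Its summed level was 17.09 to 18.12 against 16.91 to 18.45. Both probes of VIM (vimentin) had no value in pair 3, so the fibroblast sums and median of that pair leave them out. These ranges therefore cannot show whether the groups overlapped. By pair, the fibroblast median was -0.44, -0.02 and 0.08, the adipocyte median 0.03, -0.17 and -0.66, and the leukocyte median -0.43, -0.19 and -0.54.

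Of the epidermis list (2 of 5 genes) the probe of KRT14 was tested and had a mean of 0.68, and lists of skeletal muscle (10 genes) and endothelium (5 genes) had 0 genes on the array under these names. HBB, the globin that marks blood, had mean ratios of -0.30 and -0.16 on 2 probes with an SD of 1.65 and 1.57. Its ratios were 0.06 and 0.53 in pair 1, -2.11 and -1.96 in pair 2, and 1.15 and 0.96 in pair 3. The part of any of these cell types in the IGF ratios was not tested.

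The probes with the pattern most like that of IGF1 over the 3 pairs, by the Euclidean distance of the log2 ratios among 1136 probes with a gene symbol, were those of FGF10 (a growth factor of the dermis, distance 0.12), FCGRT (the neonatal Fc receptor, 0.24) and PAI-1 (the inhibitor of plasminogen activators, 0.28). FGF10 had ratios of -0.69, 0.30 and -0.15. For the IGFBP3 probe at base 1141 they were SLC5A1 (a sodium and glucose cotransporter, 0.26), FCER1A (a subunit of the IgE receptor, 0.34) and SLAMF1 (a lymphocyte surface receptor, 0.36). SLC5A1 had ratios of 0.06, -1.14 and -0.75. With 3 values per probe, such closeness is a description of these pairs only.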

How the data were processed

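Skin RNA of 6 goats was hybridised in 2 colours to 3 sheep arrays of Agilent. The scanner files deposited by the authors, made with Feature Extraction (version 10.7.3.1 in the file headers), hold unnormalized values per spot and dye, namely its mean intensity and its median local background intensity. The deposited log10 ratio of the same software and the authors' table of log2 ratios (Cy5 over Cy3) served as alternatives. In R 4.3.3 with limma 3.58.1, normexp (offset 50) used every spot. Control spots were then dropped, and each array was normalized by loess, in which spots carrying an outlier flag had weight 0 before they too were dropped. Signals well above background were found for 13872 to 14328 of 15208 spots in Cy5 and 14193 to 14602 in Cy3, and 38, 65 and 91 spots were flagged. Repeated spots of a probe were averaged, and probes with values on at least 2 arrays were tested against 0 with lmFit and eBayes, with Benjamini-Hochberg adjustment and a threshold of 0.05. The fold rule was 2. Levels per goat are the channels after Aquantile normalization. The test was checked on simulated ratios.

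The array pairs the goats, by the paper's account of goats of the same parent, and the ratio is a paired difference. The separate channels had a correlation of 0.619 within spots. Nothing says that the pairs were more than separate goats of 1 sampling. The p-values therefore rest on the spread between these pairs, which eBayes moderates by the spread of all probes. For each gene the brightest probe above background in all channels is given in full and the others by their means. Pathway genes are named where the unadjusted p was under 0.05 or the mean 2-fold, with the insulin receptor, GHR, IRS1 and PAPPA added, and other measured genes of the lists are given as a range. The members and lists were chosen with earlier results of these data known. The alternatives were the background correction, median centring, the 2 deposited ratios, a filter on dim probes, keeping flagged spots, leaving out each array, a robust eBayes with a trend, separate channels with and without pairing, and averaging probes of a gene. Gene neighbours come from the NCBI goat table ARS1.2, whose build differs from the array's records, so that no coordinates are given. Figures were drawn with matplotlib 3.10.9.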

Additional observations from a re-analysis of the deposited data

How the results depend on the processing

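No measured member probe had an adjusted p under 0.05 in any of the 14 alternatives, including the separate channels with the replicate block (correlation within spots; 164 of 14868 probes called, 0 members) and without the block (0 probes). These paired and unpaired fits return the same mean for a probe with values on all 3 arrays. The medians of the classes were therefore by construction unchanged, at -0.16, 0.00 and -0.41 for ligands, receptors and binding proteins. Median centring, which does not remove a trend of the ratio with intensity, moved the receptor median to -0.19 and the binding protein median to -0.22, and turned the means of IGF2R to -0.23 and of IGFBP6 to 0.39. In that setting 1880 of all probes were called, against 1. The mean of IGF1R, near 0, became 0.0332 with the Feature Extraction log ratio and 0.0333 with the authors' value table. Leaving out 1 pair gave 0 to 3 members at 2-fold (3 without pair 1, all of IGFBP1), and means of -0.503 to 0.0372 for IGF1, -0.119 to 0.0594 for IGF1R, -1.26 to 0.42 for IGFBP1 and -0.0708 to 0.179 for IGFBP4, with sign changes in each. The class medians then ranged from -0.32 to 0.04 for the ligands, -0.06 to 0.06 for the receptors and -0.53 to -0.31 for the binding proteins. The cause of these changes was not tested. The brightest probes of IGF2, IGFBP2, IGFBP3 and IGFBP5 kept their sign in all 13 alternatives that give a probe's mean. Some of these alternatives could not change it. The filter on dim probes, the robust eBayes and the separate channels leave the mean of these probes as it was. The IGFBP2, IGFBP3 and IGFBP5 probes were below 0 in each pair, so leaving out 1 pair could not turn them. The brightest IGF2 probe stayed higher, at 0.05 to 0.45, and the brightest probes of these binding proteins stayed lower. The less bright IGF2 probe was lower, with a mean of -0.16 with loess and -0.13 with median centring. Its mean was -0.12 with the Feature Extraction log ratio and with the authors' value table. Means of the less bright probes were not read under all of the alternatives. H19, added after seeing the data, lay between 1.41 and 1.63.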
